A study of Homo sapiens with 5 samples.

Results

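Stathmin and the microtubule-associated proteins set how fast microtubules grow, shrink and pause, and 10 of their genes are described here: the destabiliser STMN1, the lattice-binding proteins MAP1A, MAP1B, MAP2, MAP4 and MAP7, and the plus-end proteins MAPRE1, CLASP1, CLASP2 and CLIP1. They were chosen by symbol, with earlier results of these data known, and all 10 were found among the 25382 genes of the count table. All of them were among the 13297 genes with enough reads to be tested, 3 of them with a mean under 2 CPM (gene reads scaled to the size of the library). The cells were of the line MDA-MB-231, derived from a triple-negative human breast carcinoma and grown in serum-containing medium, which shear stress had separated by how firmly cells held to their surface. Weakly adherent cells gave 3 libraries, dated 6, 12 and 15 March, and strongly adherent cells gave 2, dated 6 and 15 March. The titles give these dates without saying which step they mark. No unsorted or unsheared cells are among these samples, so a response to the shear separation and a difference that the cells had before it cannot be told apart.

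Microtubules are tubes of tubulin that switch between growth and collapse at their plus ends. Stathmin binds free tubulin dimers and promotes collapse, while proteins bound along the lattice stabilise the tube or link it to other structures. End-binding proteins ride on growing tips and recruit partners such as the CLASPs and CLIP-170, which slow collapse and connect tips to the cell cortex and to focal adhesions, which microtubules help to turn over. MAP1A, MAP1B and MAP2 are best known from neurons, MAP4 is the widespread form outside neurons, and MAP7 is found mainly in epithelial cells.

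The libraries held 19630386 to 21707459 reads assigned to genes. Markers of a mesenchymal breast line were high in every library: VIM lay between 2457 and 2745 CPM and CD44 between 1471 and 1696 CPM. The summed level of the 6 mesenchymal markers was 7124 to 7374 CPM in strongly and 6671 to 6910 CPM in weakly adherent libraries. Of 7 luminal markers, the receptor genes ESR1 and PGR had 0 reads, while KRT19 lay between 234 and 293 CPM and EPCAM between 19.4 and 25.8 CPM. The summed level of the luminal list was 327 to 329 CPM in strongly and 275 to 337 CPM in weakly adherent libraries. Of 8 neuronal markers, ELAVL4, INA and NEFL had 0 reads, and the summed level of the list was 4.42 to 5.59 CPM in strongly and 3.23 to 5.16 CPM in weakly adherent libraries. The labels do not say whether libraries came from separate cultures, so p-values rest on the spread between these libraries, which may be partly technical. For single genes, p-values and intervals also borrow information on that spread from the other genes tested.

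MAP1B, which encodes a long lattice-binding protein, was higher in weakly adherent cells, and it was the only one of the 10 genes to pass the test with adhesion alone in the model. Of all genes tested, 2.68% passed (1.77% higher and 0.918% lower in weakly adherent cells; edgeR's quasi-likelihood test, Benjamini-Hochberg adjusted p under 0.05). The groups' libraries did not overlap for 6 of the 10 genes, each higher in weakly adherent cells, beside 15.5% of all genes tested that were higher and 14.5% that were lower without overlap. The log2 fold change was above 0 for 7 of the 10 genes and for 49.8% of all genes tested. The median log2 fold change, weakly minus strongly adherent, was 0.11 over the 10 genes and -0.00054 over all genes tested. Coding sequences of 7 of the 10 genes have 4.31 to 9.12 kb, in length classes whose medians were above 0 (0.11 to 0.43), while STMN1, MAPRE1 and MAP7 are shorter and in classes with medians of -0.01 to 0.01.

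**Figure D1:**
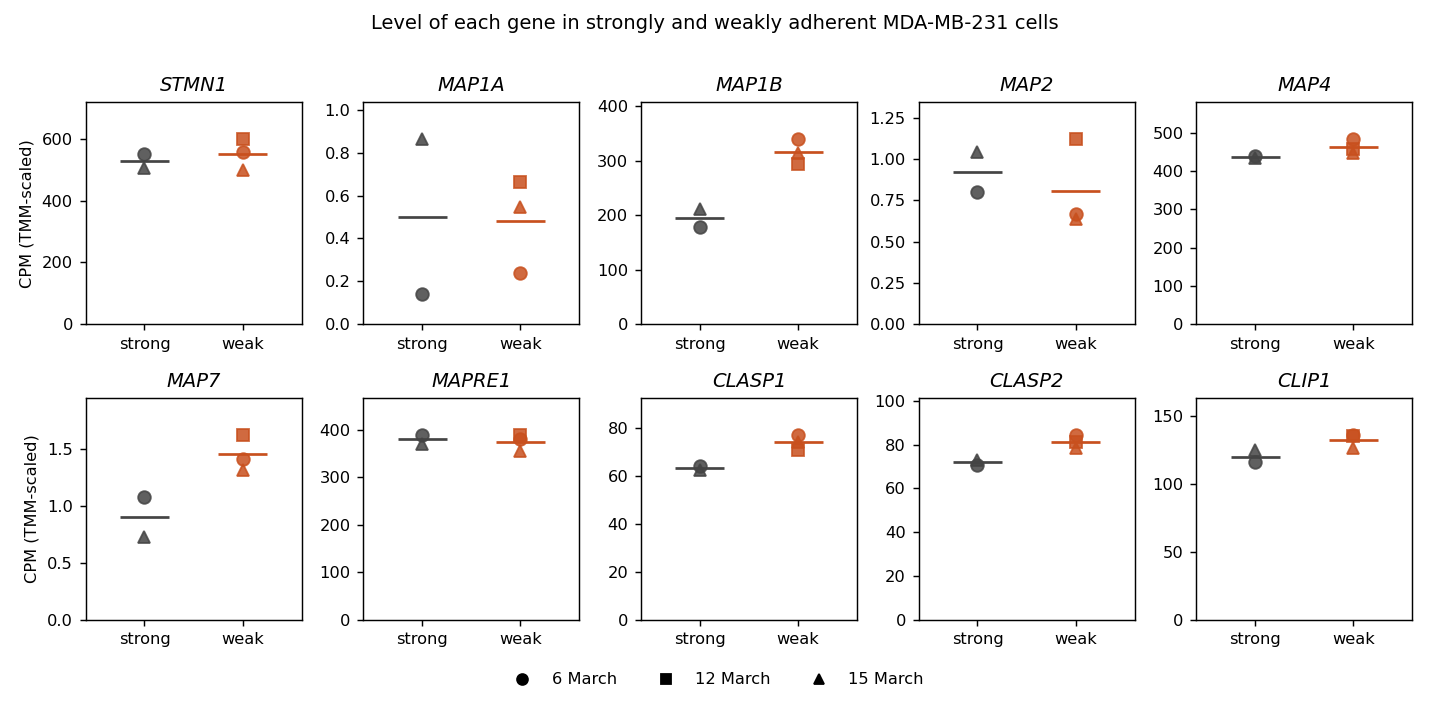
Level of each of the 10 genes in TMM-scaled CPM (vertical axes, linear from 0, each gene on its own scale) in strongly (grey) and weakly (orange) adherent libraries; symbols give the date and bars the group mean. MAP1B separates most clearly among the abundant genes, with 178 and 211 CPM in strongly and 295 to 340 CPM in weakly adherent libraries, while STMN1 and MAPRE1 overlap between the groups.

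STMN1, the tubulin-sequestering destabiliser, was abundant and alike in range in both groups. It measured 552 CPM on 6 March and 507 CPM on 15 March in strongly adherent libraries, and 557, 600 and 499 CPM on 6, 12 and 15 March in weakly adherent libraries. The weakly adherent libraries thus held both the highest and the lowest value, and the groups overlapped. The log2 fold change was 0.06 (SE 0.09, edgeR adjusted p = 0.87), with a 95% interval from -0.13 to 0.25, or 0.914-fold to 1.19-fold. The log2 ratios of weakly to strongly adherent cells within dates were 0.01 on 6 March and -0.02 on 15 March.

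STMN1 is often read as a marker of proliferation. Genes of the G2 and M phases had a median log2 fold change of 0.46 in the same comparison (54 genes, 14 called higher and 0 lower), and S phase genes one of -0.28 (42 genes tested, 0 higher and 16 lower). Against the mean of the 5 libraries, the G2/M genes lay at -0.21 and -0.36 (log2) in strongly adherent libraries of 6 and 15 March and at 0.31, 0.35 and -0.07 in weakly adherent libraries of 6, 12 and 15 March. STMN1 lay at 0.03 and -0.10, and at 0.04, 0.15 and -0.12, in the same order. Its weakly adherent library of 12 March was the highest and that of 15 March the lowest. The part of the cell cycle in the level of STMN1 was not tested.

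The 250 bases before the annotated start of each gene (RefSeq, GRCh38.p14) were searched on both strands for 7 short motifs. Most of these windows also hold annotated exons (GENCODE, any gene, either strand): 241 of 250 bases for MAP1B, all 250 for MAP4 and MAP7, 47 for STMN1, 61 for MAPRE1 and 0 for CLIP1. TTTGGCGC, a form of the site of the E2F cell cycle factors, was found before STMN1 alone of the 10 genes, and before 0.55% of 35116 genes in all. TATAAA was found before MAP1B and MAPRE1, and before 10.7% of all. GGGCGG, the core of the Sp1 site, was found before 7 of the 10 (not before MAP2, CLASP1 and CLASP2) and before 42.6% of all. TTTGAA (13.3% of all), TTCGAA (1.19%), TTTCCCGC (1.39%) and GGAATG (11.9%) were found before none of the 10. The 3 stretches are shown because they hold the letters that set these genes apart within the group, each 30 bases long, 5′ to 3′ on the gene's strand with the motif in capitals; none of these 3 matches overlaps another motif searched.
STMN1, minus strand, chr1:25906439-25906468, motif 38 bases before the start: acgtgcctctgTTTGGCGCttttgtgcgcg
MAP1B, plus strand, chr5:72107291-72107320, motif 172 bases before the start: gcctagtctccaTATAAAagcggcgccgcc
MAPRE1, plus strand, chr20:32819851-32819880, motif 91 bases before the start: tgagaccctctcTATAAAaggagccggcgg
Whether these letters bear on the change of a gene with adhesion was not tested. A match of letters is a description and does not show a bound site.

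MAP1B measured 178 and 211 CPM in the strongly adherent libraries of 6 and 15 March. In weakly adherent cells it measured 340 CPM on 6 March, 295 CPM on 12 March and 315 CPM on 15 March. All 3 weakly adherent libraries lay above both strongly adherent ones, with a gap between the groups wider than the spread within either. The means were 195 ± 23.3 CPM (SD, n = 2) in strongly and 317 ± 22.6 CPM (SD, n = 3) in weakly adherent cells, a 1.62-fold difference with a 95% interval from 1.42 to 1.86. The log2 fold change was 0.70 (SE 0.09, edgeR adjusted p = 0.0014), and MAP1B ranked 42 by p among all genes tested. Within dates the log2 ratio was 0.93 on 6 March and 0.57 on 15 March. The call stood whichever library was left out, with log2 fold changes from 0.58 (edgeR adjusted p = 0.019, with the strongly adherent 6 March library left out) to 0.83 (adjusted p = 0.00086, with the 15 March one left out). In bulk RNA, a larger share of cells with MAP1B and more MAP1B RNA per cell cannot be told apart.

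The coding sequence of MAP1B has 7.40 kb, and long genes as a class moved the same way. Genes with a coding sequence of 6 to 8 kb had a median log2 fold change of 0.21 (179 genes), and 4 of them, MAP1B included, were at or above the value of MAP1B. With adhesion alone in the model, 30 of these 179 genes were called higher, MAP1B included, and 1 lower. Over 10 kb, 41 of 76 genes were called higher and 0 lower, and under 1 kb 12 of 3481 higher and 34 lower. Against the mean of the 5 libraries, MAP1B lay at -0.54 and -0.30 (log2) in the strongly adherent libraries of 6 and 15 March and at 0.39, 0.18 and 0.28 in the weakly adherent ones of 6, 12 and 15 March. The median of the 76 genes with coding sequences over 10 kb lay at -0.53, -0.33, 0.29, 0.17 and 0.37 in the same order, and that of the other 178 genes of 6 to 8 kb at -0.13, -0.12, 0.09, 0.07 and 0.08. Once each library's trend with coding length had been removed, the log2 fold change of MAP1B was 0.42 (SE 0.09, edgeR adjusted p = 0.017), in a fit that called 1.99% of genes (0.955% higher and 1.04% lower). Removing the trend with coding length thus took the value from 0.70 to 0.42, and the call stood.

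**Figure D2:**
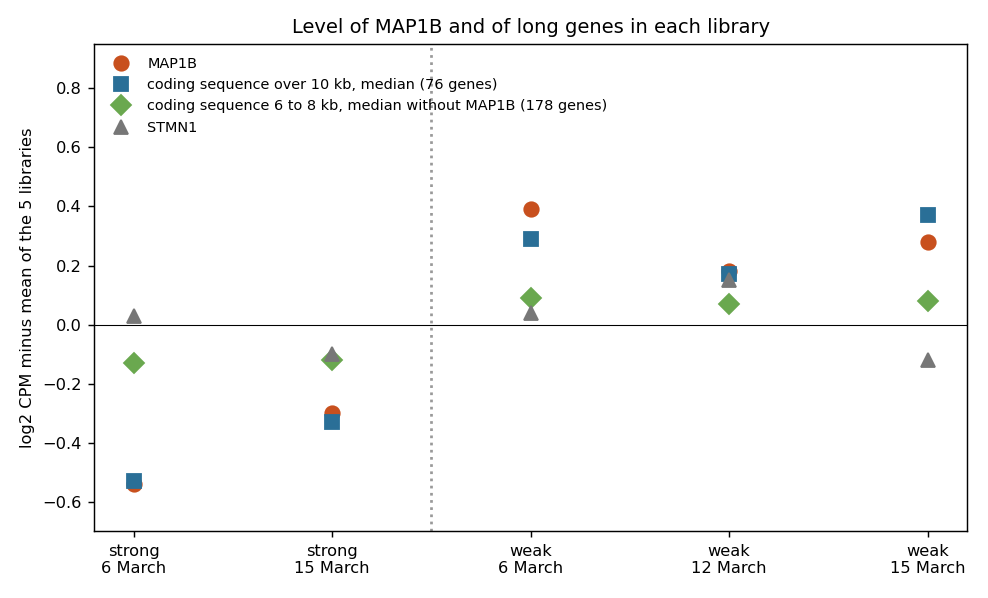
Level of MAP1B (orange circles), of STMN1 (grey triangles) and the medians of genes with coding sequences over 10 kb (blue squares) and of 6 to 8 kb (green diamonds), as log2 CPM minus the mean of the 5 libraries (vertical axis), in each library (horizontal axis); the dotted line parts strongly from weakly adherent libraries. MAP1B runs from -0.54 to 0.39 and lies close to the genes over 10 kb, farther from 0 than the median of its own length class.

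The genes whose levels followed that of MAP1B most closely were long as well. Likeness was the root mean square difference of the centred log2 CPM over the 5 libraries, among the 9334 other genes whose mean reached 10 CPM. MYO9A, an unconventional myosin, differed by 0.0217, PRRC2C by 0.0244 and ALMS1, a centrosomal protein, by 0.0322. Their coding sequences have 7.64, 8.46 and 12.5 kb. MYO9A measured 15.1 and 18 CPM in strongly and 27.8, 24.7 and 26.6 CPM in weakly adherent libraries. For STMN1 the nearest genes were PI4KA (0.0131), FBXO34 (0.0235) and MON1B (0.0254), with log2 fold changes of 0.06, 0.03 and 0.10. Their coding sequences have 6.31, 2.13 and 1.64 kb, beside 0.522 kb for STMN1. PI4KA has near-identical pseudogene copies, so its count is uncertain.

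MAP1A, the paralog of MAP1B, was barely detected, and its reads followed the date more than adhesion. It had 3 reads on 6 March and 19 on 15 March in strongly adherent libraries (exact Poisson 95% intervals 0.619 to 8.77 and 11.4 to 29.7, counting error only). The weakly adherent libraries had 5, 13 and 12 reads on 6, 12 and 15 March. The libraries of 6 March were the lowest in each group, and the groups overlapped. The log2 fold change with adhesion was -0.08 (SE 0.66, edgeR adjusted p = 0.99), with an interval from -1.55 to 1.39 that does not exclude changes of over 2-fold in either direction. With the strongly adherent 15 March library left out the value was 1.73 (adjusted p = 0.50), and with the 6 March one left out it was -0.84 (adjusted p = 0.71).

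Between the dates, a comparison made after these values were seen, MAP1A was higher on 15 than on 6 March by 1.86 (log2, SE 0.56, edgeR adjusted p = 0.015, adhesion as covariate, 4 libraries). In that comparison 9.29% of genes tested passed, 6.72% higher and 2.57% lower on 15 March, and the fit leaves 1 residual degree of freedom. On 6 March it rests on the 3 and 5 reads of the strongly and weakly adherent library. None of the other 9 genes passed between the dates; the nearest was STMN1, at -0.14 (SE 0.07, edgeR adjusted p = 0.17).

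MAP2 and MAP7 were also rare. MAP2, a dendritic lattice protein of neurons, had 17 and 23 reads in strongly and 14, 22 and 14 in weakly adherent libraries, which overlapped. Its log2 fold change was -0.21 (SE 0.36, edgeR adjusted p = 0.89). MAP7, which stabilises microtubules and recruits kinesin-1, had 23 and 16 reads in strongly adherent libraries of 6 and 15 March. It had 30, 32 and 29 reads in weakly adherent libraries of 6, 12 and 15 March, all above both strongly adherent ones. Its means were 0.905 ± 0.251 CPM (SD, n = 2) and 1.46 ± 0.161 CPM (SD, n = 3), a 1.61-fold difference with a 95% interval from 1.03 to 2.52. The log2 fold change of 0.69 (SE 0.30) nearly equalled that of MAP1B and did not pass (edgeR adjusted p = 0.32). MAP7 has a coding sequence of 2.34 kb, a class with a median of 0.01, and its value after removal of the coding length trend was 0.68 (SE 0.31).

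MAP4, the main lattice protein outside neurons, was nearly level. It measured 440 and 433 CPM in strongly and 483, 458 and 447 CPM in weakly adherent libraries. The groups did not overlap, although their nearest values were 440 and 447 CPM, and the log2 fold change was 0.08 (SE 0.07, edgeR adjusted p = 0.70, 95% interval from -0.07 to 0.24). Of the 179 genes with coding sequences of 6 to 8 kb, 127 were at or above the value of MAP4 (MAP4 included), which has 6.89 kb. After removal of the coding length trend MAP4 turned to -0.17 (SE 0.09, edgeR adjusted p = 0.45), so its direction depends on that setting. MAP1B and MAP4 are thus of similar coding length and lay on opposite sides of their class median.

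**Figure D3:**
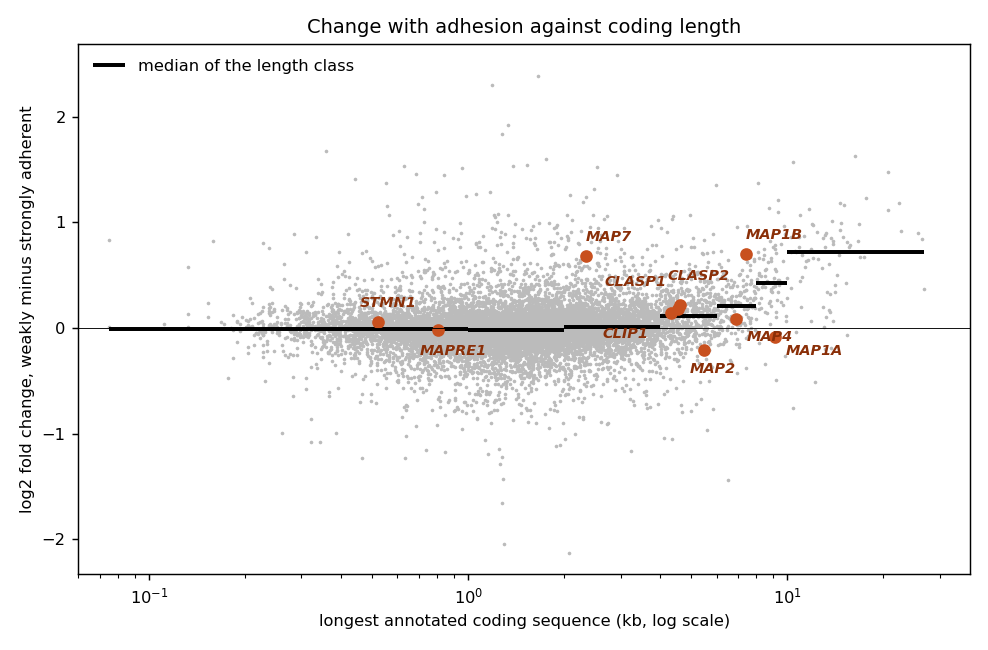
Log2 fold change, weakly minus strongly adherent (vertical axis), against the longest annotated coding sequence in kb (horizontal axis, log scale) for all tested genes with a coding length (grey) and the 10 genes described (orange); black lines are the medians of length classes. The median climbs from -0.01 under 1 kb to 0.72 over 10 kb, MAP1B (0.70) lies above the median of its class (0.21) and MAP4 (0.08) below it.

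The plus-end genes held small differences of which none passed with adhesion alone. MAPRE1, which encodes the end-binding protein EB1, measured 390 and 371 CPM in strongly and 380, 390 and 355 CPM in weakly adherent libraries. The groups overlapped, and the log2 fold change was -0.02 (SE 0.07, edgeR adjusted p = 0.96) with an interval from 0.884-fold to 1.10-fold. Its sign turned after removal of the coding length trend (0.01). CLIP1, which encodes CLIP-170, measured 116 and 125 CPM in strongly and 136, 135 and 126 CPM in weakly adherent libraries. The groups did not overlap, although the 15 March libraries lay at 125 and 126 CPM, and the log2 fold change was 0.14 (SE 0.07, edgeR adjusted p = 0.45).

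The CLASPs, which stabilise microtubules at the cell edge, were slightly higher in weakly adherent cells, and CLASP1 passed only when the date was in the model. CLASP1 measured 64.2 and 62.6 CPM in strongly and 77.1, 70.9 and 73.9 CPM in weakly adherent libraries, without overlap. Its log2 fold change was 0.22 (SE 0.08, edgeR adjusted p = 0.18), and within dates the log2 ratio was 0.26 on 6 March and 0.24 on 15 March. With the date as a block it was 0.25 (SE 0.07, edgeR adjusted p = 0.0068), in a fit that called 11.5% of genes (6.20% higher and 5.28% lower) and leaves 1 residual degree of freedom. After removal of the coding length trend, with the date block kept, it was 0.14 (edgeR adjusted p = 0.25), in a fit that called 9.73% of genes (4.50% higher and 5.23% lower). CLASP2 measured 70.7 and 73.1 CPM in strongly and 84.5, 81.0 and 78.4 CPM in weakly adherent libraries, also without overlap (log2 fold change 0.18, SE 0.08, edgeR adjusted p = 0.30). CLASP1, CLASP2 and CLIP1 have coding sequences of 4.31 to 4.61 kb, a class with a median of 0.11, and after removal of the coding length trend they stood at 0.12, 0.08 and 0.05.

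**Figure D4:**
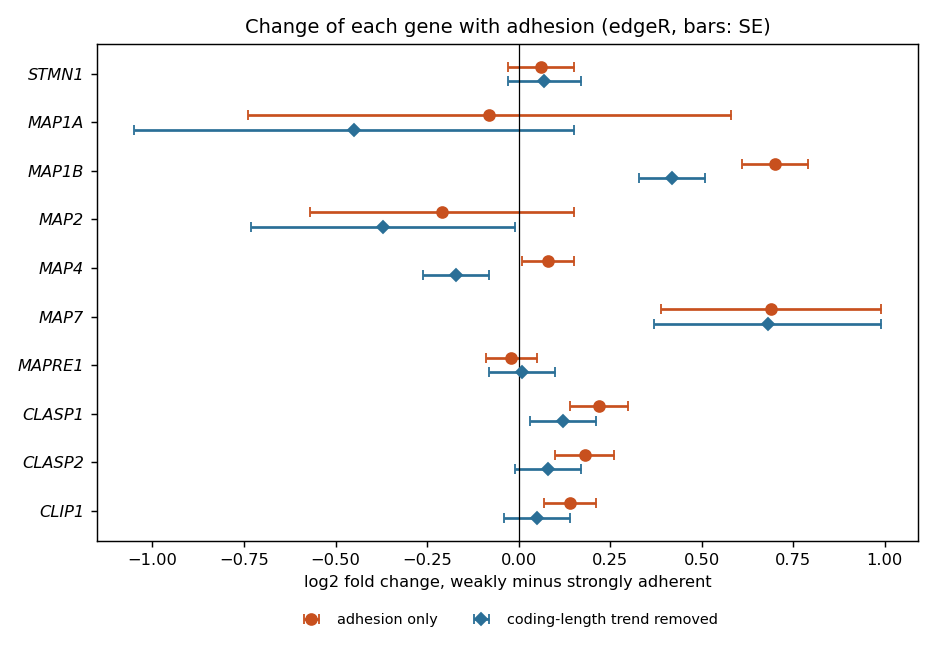
Log2 fold change of each gene (horizontal axis), weakly minus strongly adherent, with its SE, from the fit with adhesion only (orange circles) and with each library's trend with coding length removed (blue diamonds). MAP1B moves from 0.70 to 0.42 and stays clear of 0, MAP4 changes sign from 0.08 to -0.17, and the bars of MAP1A and MAP2 are wide because of their few reads.

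The balance between members was compared within each library, as log2 ratios of read counts with 0.5 added to each. The ratio of STMN1 to MAP4 was 0.33 and 0.23 in strongly and 0.20, 0.39 and 0.16 in weakly adherent libraries, a difference of -0.03 (exact permutation p = 0.80, two-sided, n = 2 and 3). That of CLASP1 to CLASP2 was -0.14 and -0.22 in strongly and -0.13, -0.19 and -0.09 in weakly adherent libraries, a difference of 0.04 (exact permutation p = 0.40). The ratio of CLIP1 to MAPRE1 was -1.75 and -1.57 in strongly and -1.48, -1.53 and -1.50 in weakly adherent libraries, so the groups did not overlap. The difference was 0.16 (exact permutation p = 0.10), 0.27 within 6 March and 0.08 within 15 March. That of MAP1B to MAP1A was 10.08 and 7.90 in strongly and 10.35, 8.74 and 9.11 in weakly adherent libraries, a difference of 0.41 (exact permutation p = 0.80). With the 6 March strongly adherent library left out the difference was 1.5, with the 15 March one left out -0.68 and with the weakly adherent one of 6 March left out -0.06, so its direction rests on single libraries. The 4 ratios were tested with 10 splits each, where p cannot go below 0.10, so none could reach 0.05.

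Per kb of the longest annotated transcript, and as a mean over the 5 libraries, STMN1 stood highest at 184 ± 14.0 CPM per kb (SD, n = 5), followed by MAPRE1 at 144 ± 5.52 and MAP4 at 50.7 ± 2.18. MAP1B (22.3 ± 5.78) and CLIP1 (21.6 ± 1.43) came next with close means. These SDs span both groups, between which the order of the 2 genes differed, as given below. CLASP2 (10.6 ± 0.778) and CLASP1 (8.62 ± 0.767) followed, and MAP7 (0.273 ± 0.0766), MAP2 (0.0879 ± 0.0227) and MAP1A (0.0464 ± 0.0283) were lowest, the last pair overlapping. Which transcripts the cells expressed is not known, and on the transcript with the longest coding sequence STMN1 stood at 573 CPM per kb. In CPM not divided by length, MAP1B (178 to 340) lay above CLIP1 (116 to 136) in every library. Per kb of these transcripts, MAP1B and CLIP1 changed places between the groups. In strongly adherent libraries MAP1B had 14.8 and 17.6 CPM per kb against 19.6 and 21.1 for CLIP1. In weakly adherent libraries of 6, 12 and 15 March MAP1B had 28.3, 24.5 and 26.2 against 23.0, 22.9 and 21.3.

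Of 88 other microtubule genes grouped by role, 77 were tested and 6 were called, all higher in weakly adherent cells (7.79% of those tested, beside 2.68% of all genes). The lists by role were drawn up with earlier results of these data known, so their shares of calls are descriptions only. The 77 had a median log2 fold change of 0.02, and 41 were above 0. With the date as a block, 12 were higher and 3 lower, in the fit that called 6.20% of all genes higher and 5.28% lower.

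The calls lay mostly among plus-end proteins, where 4 of 19 tested genes were higher, beside 1.77% of all genes tested, and 0 were lower. Of the 19, 17 were above 0, and the median log2 fold change was 0.15 (0.11 after removal of the coding length trend). Coding sequences of the 4 called genes have 5.63 to 8.53 kb. Called higher were 37 of all 566 genes of 4 to 6 kb, 30 of 179 of 6 to 8 kb and 38 of 73 of 8 to 10 kb. With the coding length trend removed, 2 of the 19 were called higher, beside 0.955% of all genes, and 0 lower. NAV2, a neuron navigator that tracks plus ends, measured 50.0 and 52.7 CPM in strongly and 115, 99.2 and 87.1 CPM in weakly adherent libraries (log2 fold change 0.97, SE 0.11, edgeR adjusted p = 0.00082). It kept its call whichever library was left out and after removal of the coding length trend (0.68, adjusted p = 0.0045). Its relative NAV1 rose 1.55-fold (edgeR adjusted p = 0.0036, or 0.058 when the 6 March strongly adherent library was left out). The microtubule polymerase CKAP5 rose 1.52-fold (edgeR adjusted p = 0.015), and the call ended when the 15 March strongly adherent library (0.10) or the 12 March weakly adherent one (0.056) was left out, and after removal of the coding length trend (0.096). APC, the tumour suppressor that binds plus ends and EB1, rose 1.41-fold (edgeR adjusted p = 0.026). Its call ended when the 6 March strongly adherent library (0.29) or the weakly adherent one of 12 March (0.063) or 15 March (0.096) was left out, and after removal of the coding length trend (log2 fold change 0.15, adjusted p = 0.62).

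Among the 24 other lattice proteins tested, CKAP2, a mitotic spindle protein, was the only call. It rose 1.78-fold (edgeR adjusted p = 0.034), with means of 97.8 ± 4.58 CPM (SD, n = 2) in strongly and 175 ± 32.1 CPM (SD, n = 3) in weakly adherent cells. The call was lost when either strongly adherent library was left out (0.15 for 6 March, 0.17 for 15 March). CKAP2 and CKAP5 are also on the G2/M list, and 5 of the 88 genes are. The median of the lattice list was -0.04, with 10 genes above 0. Of 23 kinases and tubulin-modifying enzymes, TAOK1, a kinase that acts on microtubule-associated proteins, was the only call (1.55-fold higher, edgeR adjusted p = 0.029). That call ended when the 6 March strongly adherent library (0.088) or the weakly adherent one of 12 March (0.081) or 15 March (0.093) was left out, and stood after removal of the coding length trend (0.0061).

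None of 8 other destabilising and severing proteins passed. FIGNL1, of the fidgetin family, had the smallest p (log2 fold change -0.34, SE 0.10, edgeR adjusted p = 0.11, which was 0.00061 with the date as a block), followed by FIGN (0.24, SE 0.12, adjusted p = 0.41). None of the 3 CAMSAP genes, whose proteins cap minus ends, passed, with CAMSAP2 at 0.12 (SE 0.07, edgeR adjusted p = 0.52) and CAMSAP1 at -0.03 (SE 0.08, adjusted p = 0.94).

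**Figure D5:**
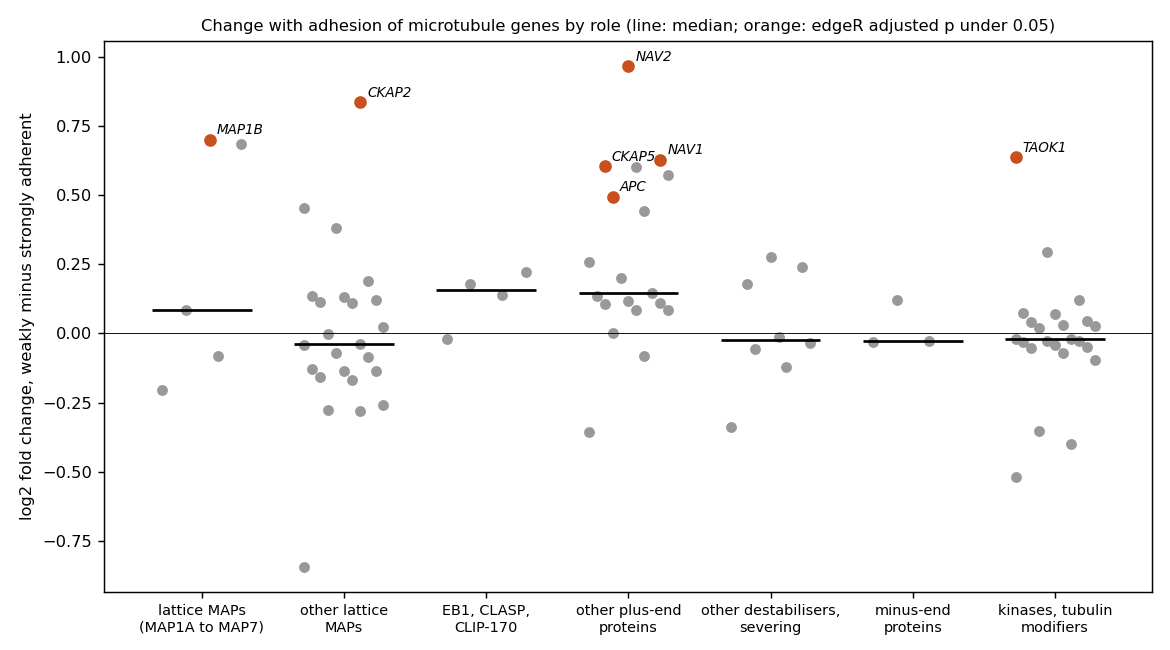
Log2 fold change, weakly minus strongly adherent (vertical axis), of each tested microtubule gene by role (horizontal axis; spread within a column carries no meaning); lines are medians and orange points passed edgeR's test. MAP1B (0.70) is the only orange point among the genes described above, and the other plus-end proteins hold 4 of the other 6.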

How the data were processed

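Libraries from total RNA of separated MDA-MB-231 cells (TruSeq Stranded kit, single-end reads of 50 bases) were sequenced, per the labels' protocols. Named in the submitters' processing notes are STAR, HTSeq, cutadapt, FastQC, DESeq2 and the build hg19, with no version. Which annotation was counted, and whether by strand, is not given in the sources used here. Whether the counts of CLASP1, CLIP1 and MAP7 include reads of annotated antisense genes is therefore not known, and STMN1 holds a microRNA gene (MIR3917) in an exon. Of the 50-base windows of the longest coding transcripts, 2.00% for STMN1, 0.777% for MAPRE1 and 0% for the other 8 genes occur in another gene's transcript.

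The authors deposited raw counts per gene symbol, used for all tests, and log2 values, which equal log2(count / size factor + 1) within 0.000517 reads, as tested on the file. HTSeq's 5 total rows were left out; aligned reads in no gene were 6.49% to 8.08% of the column total.

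Genes were tested with edgeR 4.0.16 (TMM, filterByExpr, robust quasi-likelihood F test, Benjamini-Hochberg over all 13297 tested genes) in R 4.3.3, and SEs follow from the F statistic. Alternatives were DESeq2 1.42.0, limma 3.58.1, other filters and scalings, the date as a block, length trends removed (spline with 5 degrees of freedom, lengths by symbol from GENCODE release 29; 88.5% of tested genes had a coding length) and each library left out. The tests were tried on simulated data, where the share of false calls was above the nominal threshold and highest with the date as a block. Strongly and weakly adherent libraries dated alike in their titles were taken as pairs. Their deviations from group means correlated at 0.34 (6 March) and 0.20 (15 March), values that mirror each other in part with 2 strongly adherent libraries. The weakly adherent library of 12 March, which shares no date, correlated at 0.16 with the strongly adherent one of 15 March and at -0.16 with that of 6 March. These values are equal and opposite by construction, since the deviations of 2 libraries from their mean are exact opposites. The members, lists and rules were chosen with earlier results of these data known. Named besides the 10 genes are all called genes of each microtubule list (or the 2 with the smallest p) and the 3 genes nearest in pattern to STMN1 and MAP1B.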

Additional observations from a re-analysis of the deposited data

Results flagged for a closer look

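Of the 10 genes, STMN1 and MAP1A had log2 ratios of weakly to strongly adherent cells of opposite sign on the 2 dates with libraries of both groups. The ratio of STMN1 was 0.01 on 6 March and -0.02 on 15 March, both within the spread between libraries of a group. The ratio of MAP1A was 0.75 on 6 March, from 5 against 3 reads, and -0.66 on 15 March, from 12 against 19 reads. With 1 library per group and date, the difference of this ratio between the dates was not tested for either gene.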

How the results depend on the processing

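MAP1B kept its direction and its call under all 15 alternatives, with log2 fold changes from 0.42 to 0.83. With the date as replicate block 2 of the 10 genes were called, the second being CLASP1 (0.25). The block changed no other call among the 10. That fit called 11.5% of all genes tested (6.20% higher and 5.28% lower) and leaves 1 residual degree of freedom. With the coding length trend removed as well, CLASP1 was at 0.14 and not called (edgeR adjusted p = 0.25). CLASP2, CLIP1 and MAP7 kept a positive sign and no call throughout. Signs that turned, all without a call: STMN1 was at -0.01 with the date block and lay between -0.01 and 0.13 with a library left out; MAP1A was at 0.27 in limma-voom and 0.25 on the authors' log2 values, and between -0.84 and 1.73 with a library left out; MAP2 lay between -0.50 and 0.01 with a library left out; MAP4 was at -0.17 after removal of the coding length trend (also with the date block) and -0.02 after that of the transcript length trend; MAPRE1 was at 0.01 and 0.0014 after removal of these trends and between -0.05 and 0.02 with a library left out. The cause was not tested.

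Over all genes, 357 calls became 536 with no filter, 1527 with the date as replicate block and 1294 with the coding length trend removed as well. They were 116 to 341 with a library left out (116 when it was the strongly adherent one of 6 March, 214 for that of 15 March, 194 for the weakly adherent one of 12 March). Calls were 65.8% higher in the fit with adhesion alone, 54.0% with the date block, 47.9% with the coding length trend and 51.1% with the transcript length trend removed. The 6 calls among other microtubule genes became 15 with the date block, 13 with the coding length trend removed as well, and 2 to 9 with a library left out (2 when it was the strongly adherent one of 6 March, 3 for the weakly adherent one of 12 March). The difference in the ratio of CLIP1 to MAPRE1 was 0.07 to 0.25 with a library left out, and that of MAP1B to MAP1A -0.68 to 1.5. Few reads limit MAP1A, MAP2 and MAP7.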
